A study of Homo sapiens with 4 samples.

Results

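The MYC, MAX and MXD network was followed here through 10 genes, MYC, MYCN, MYCL, MAX, MXD1, MXI1, MXD3, MXD4, MNT and MGA, by taking every probe set annotated to only 1 of these symbols. The rule gave 29 probe sets of 54675, which measured 9 of the 10 genes. MXD4 was not analysed here, because its 3 probe sets are also annotated to the microRNA gene MIR4800. Messenger RNA had been measured on 1-colour Affymetrix arrays in HCT116, an established human colorectal carcinoma line with mutant CTNNB1. The 4 arrays were 1 each of cells with KSR1 hairpin #1, cells with KSR1 hairpin #2, cells with the non-targeting hairpin shCTRL, and untransfected cells. Hairpin vectors had been introduced by lipofection and clones selected with puromycin. The sources used here do not say whether an array stands for 1 clone or for several. KSR1 is a scaffold protein of the RAF, MEK and ERK kinase cascade.

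The network is a family of basic helix-loop-helix leucine zipper proteins that bind the E-box of DNA in pairs. MYC, MYCN and MYCL pair with MAX and activate genes of ribosome production, nucleotide synthesis and growth. MXD1, MXI1, MXD3, MXD4 and MNT pair with the same MAX and recruit the SIN3 histone deacetylase complex, so they compete with MYC for partner and site. MGA also pairs with MAX, and belongs to a Polycomb-type repressor complex. In colon carcinoma cells MYC transcription is driven by beta-catenin and TCF factors, and ERK phosphorylation stabilises the MYC protein, which arrays do not measure.

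The values are deposited intensities, 1 per probe set and array, and each log2 level is log2(intensity + 16). There was 1 array per group and hence no replicate error. The only fit with residual degrees of freedom, 2 of them, set both hairpin arrays against both others with limma. Its standard errors (SE) hold the spread between hairpins and between the other 2 cell populations, not between cultures of 1 kind. Limma also draws each SE toward a value shared by all probe sets in the fit. An SE is thus not the spread of 1 probe set alone. As a second measure of spread, the SD of the difference between shCTRL and untransfected cells was taken over probe sets of the same brightness decile. This SD is for 2 single arrays, and a difference between means of 2 arrays would vary less under the same noise. Set against such a difference, it is a wide measure. Probe sets were analysed where their mean log2 level reached 6.08, the median of all probe sets, which left 27338 in all and 15 of the 29 network probe sets, from 8 genes. Array medians of intensity lay between 50.7 and 52.0. Actin signal from 3' relative to 5' probes, which grows as RNA degrades, had a ratio of 2.01 with hairpin #1, 2.22 with hairpin #2, 2.09 in shCTRL and 2.68 in untransfected cells. The same ratio for GAPDH was 1.14 with hairpin #1, 1.19 with hairpin #2, 1.17 in shCTRL and 1.16 in untransfected cells. The brightest KSR1 probe set had intensities of 141 with hairpin #1 and 171 with hairpin #2, against 211 in shCTRL and 209 in untransfected cells (log2 difference -0.40, SE 0.12). The other KSR1 probe sets, 213767_at, 213769_at and 213770_at, lay below the filter. On these the hairpin arrays overlapped the others, with log2 differences of -0.04, 0.02 and -0.16. The epithelial markers EPCAM and KRT18 lay between 7855 and 8119 and between 12123 and 16755. Of 10 epithelial markers 9 were analysed, with LGR5 below the filter. Their median difference from shCTRL was -0.10 with hairpin #1 and 0.32 with hairpin #2, and from untransfected cells -0.12 and 0.35. The summed intensity of all 10 markers, LGR5 included, was 35208 with hairpin #1 and 45400 with hairpin #2, against 37749 in shCTRL and 37369 in untransfected cells. KRT20 had 52.5 and 275 with hairpins #1 and #2, against 63.7 in shCTRL and 166 in untransfected cells. The part of these marker differences in the results was not tested. In addition, 3 of 8 fibroblast markers and 1 of 6 measured leukocyte markers reached the filter.

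MXI1, an antagonist of MYC, was lower with both KSR1 hairpins than in both other cell populations. Its single probe set, 202364_at, had intensities of 1953 with hairpin #1 and 1903 with hairpin #2, against 3272 in shCTRL and 3482 in untransfected cells. The hairpin arrays and the others did not overlap, and within each side the arrays lay close together. Against shCTRL the hairpin arrays stood at 59.7% and 58.2% of the intensity, and against untransfected cells at 56.1% and 54.6%. The mean of the hairpin arrays was lower by a log2 difference of -0.80 (SE 0.10), a 1.74-fold distance. The hairpins differed from each other by -0.04 log2 units and shCTRL from untransfected cells by -0.09. The nearest arrays of the 2 sides were 0.74 log2 units apart, 3.28 times the SD of 0.23 between shCTRL and untransfected cells at this brightness. A gap at least this far downward was seen for 22 of 27338 probe sets, MXI1 included. In bulk RNA, less transcript per cell and fewer cells with the transcript cannot be told apart.

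In the limma fit MXI1 had the eighth smallest unadjusted p of all probe sets (0.000576), but the Benjamini-Hochberg adjusted p was 0.66. No network probe set passed the adjusted threshold of 0.05, as did 0% of all 27338 probe sets, of which 7.36% had an unadjusted p under 0.05. MXI1 was the only 1 of the 15 network probe sets at that unadjusted level. Leaving out 1 array at a time kept the MXI1 difference between -0.85 and -0.76.

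**Figure D1:**
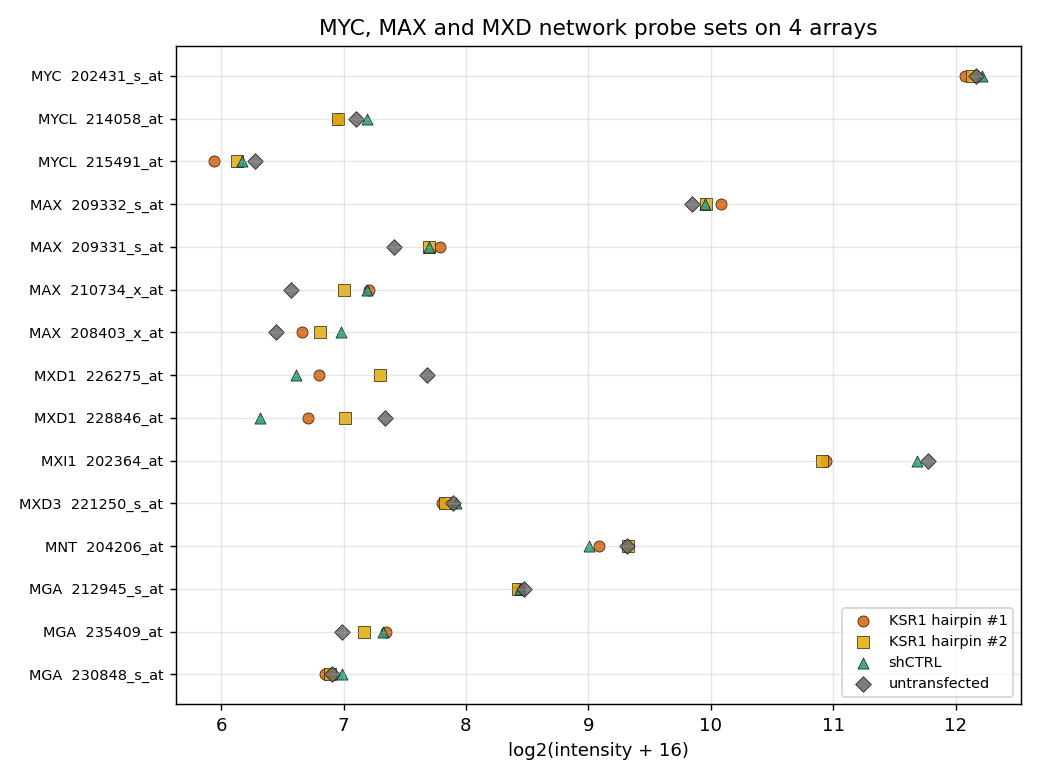
Level of each analysed network probe set on the 4 arrays, as log2(intensity + 16), with 1 symbol per array and 1 row per probe set. The MXI1 row parts into hairpin arrays at 1953 and 1903 intensity units and the others at 3272 and 3482, and the MXD1 rows have untransfected cells highest and shCTRL lowest.

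MXI1 has several transcription starts, and the probe set is not assigned here to any 1 of the transcripts. The windows from 250 bases before to 50 after each start in RefSeq (GRCh38.p14, chromosome 10, plus strand) are shown because MXI1 is the network gene that stood apart, and is known as a hypoxia-inducible gene. Window 1 is chr10:110207355-110207654, window 2 chr10:110209981-110210280 and window 3 chr10:110225746-110226045. Capitals mark the core letters bound by hypoxia-inducible factors, ACGTG or GCGTG, on either strand (CACGT or CACGC when read in reverse).
MXI1 window 1: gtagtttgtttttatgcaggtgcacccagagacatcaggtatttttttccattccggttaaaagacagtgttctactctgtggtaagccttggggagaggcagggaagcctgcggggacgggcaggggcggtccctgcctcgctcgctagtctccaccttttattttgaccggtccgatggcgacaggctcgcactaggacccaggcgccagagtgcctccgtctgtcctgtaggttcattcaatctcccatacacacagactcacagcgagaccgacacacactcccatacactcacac
MXI1 window 2: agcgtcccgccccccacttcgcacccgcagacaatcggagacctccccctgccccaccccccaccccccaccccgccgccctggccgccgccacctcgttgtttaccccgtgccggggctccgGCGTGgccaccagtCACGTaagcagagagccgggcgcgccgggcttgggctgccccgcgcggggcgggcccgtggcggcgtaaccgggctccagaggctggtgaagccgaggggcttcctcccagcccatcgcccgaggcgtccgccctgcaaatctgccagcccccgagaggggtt
MXI1 window 3: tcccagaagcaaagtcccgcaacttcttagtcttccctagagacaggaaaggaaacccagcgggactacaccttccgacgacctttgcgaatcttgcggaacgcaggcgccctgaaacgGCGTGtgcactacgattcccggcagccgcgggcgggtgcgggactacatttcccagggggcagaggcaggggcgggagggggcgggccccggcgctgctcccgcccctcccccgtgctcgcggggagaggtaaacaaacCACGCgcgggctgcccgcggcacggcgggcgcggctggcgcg
Window 1 held neither core, window 2 held ACGTG 1 time and GCGTG 1 time, and window 3 held GCGTG 2 times. Such short motifs are common: ACGTG was in 21.4% and GCGTG in 36.5% of 35116 windows of this length. The E-box CACGTG, which contains ACGTG on both strands, was in none of the MXI1 windows and in 7.26% of all windows.

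The genes whose profile over the 4 arrays lay nearest that of MXI1 were looked up after its values were seen. They were ARLN, which codes for a small membrane protein that acts on the calcium pump of the endoplasmic reticulum, the forkhead transcription factor FOXD1, and CFAP53, a protein of cilia, at root mean square distances of 0.03, 0.04 and 0.05 log2 units after centring. FOXD1 had intensities of 654 and 649 with hairpins #1 and #2, against 1042 in shCTRL and 1195 in untransfected cells. ARLN had 2129 and 1978 with the hairpins, against 3377 in shCTRL and 3588 in untransfected cells. With 4 points per profile, likeness of this kind is a description of these arrays.

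MYC itself differed little between the arrays. Its probe set, 202431_s_at, had intensities of 4315 with hairpin #1 and 4478 with hairpin #2, against 4746 in shCTRL and 4576 in untransfected cells. Both hairpin arrays were the lowest of the 4, and the nearest arrays of the 2 sides were 0.03 log2 units apart. The difference of -0.08 (SE 0.10, limma adjusted p = 0.82) was smaller than the SD of 0.23 between shCTRL and untransfected cells at this brightness. The whole range over the 4 arrays was 0.14 log2 units. By the rule for likeness, GSK3A, a kinase whose phosphorylation of MYC marks it for degradation, SKIC2, an RNA helicase of the cytoplasmic exosome pathway, and the homeobox gene GBX1 had the nearest profiles, at 0.01 log2 units each over the 4 arrays, a likeness between profiles that are all nearly flat.

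MYCL, a paralog of MYC, was slightly lower with the hairpins on both of its probe sets. Probe set 214058_at had intensities of 108 with each hairpin, against 130 in shCTRL and 121 in untransfected cells. Probe set 215491_at had 45.5 with hairpin #1 and 54.1 with hairpin #2, against 55.9 in shCTRL and 61.5 in untransfected cells. Its mean log2 level of 6.13 lay just above the filter of 6.08, so these are dim values. On neither probe set did the hairpin arrays overlap the others. The differences were -0.19 and -0.18 (SE 0.10 and 0.12, limma adjusted p = 0.67 and 0.70). The SDs between the single arrays of shCTRL and untransfected cells at their brightness were 0.28 and 0.22. MYCN, the paralog known from neuroblastoma, had 10 probe sets with intensities between 7.79 and 56.5, none of which reached the filter, so these values are not told apart from background.

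MAX, the common partner, was read by 5 probe sets, of which 4 were analysed. The brightest, 209332_s_at, had intensities of 1067 with hairpin #1 and 979 with hairpin #2, against 974 in shCTRL and 902 in untransfected cells. The hairpin arrays lay above the others by a gap of only 0.01 log2 units, and the difference was 0.12 (SE 0.11, limma adjusted p = 0.76). On all 4 analysed probe sets untransfected cells had the lowest level, as they did for 30.5% of all probe sets. The distance was widest on 210734_x_at, with 132 for hairpin #1 and 112 for hairpin #2, against 130 in shCTRL and 79.0 in untransfected cells. On 208403_x_at the intensities were 85.2 and 96.1 with hairpins #1 and #2, against 110 in shCTRL and 71.5 in untransfected cells. On 209331_s_at they were 205 and 191, against 192 in shCTRL and 154 in untransfected cells. The distances of shCTRL from untransfected cells were thus 0.11, 0.29, 0.62 and 0.53 log2 units on 209332_s_at, 209331_s_at, 210734_x_at and 208403_x_at, so the probe sets agreed in direction but not in size. The "x" in a probe set name marks probes that may bind other transcripts. Without the untransfected array the differences between hairpins and shCTRL on 210734_x_at and 208403_x_at turned to -0.08 and -0.25. The fifth MAX probe set, 214108_at, lay below the filter at intensities between 35.0 and 40.7.

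MXD1, an antagonist that rises as epithelial cells leave the cycle and differentiate, separated untransfected cells from shCTRL and not the hairpins from the others. Probe set 226275_at had intensities of 95.5 with hairpin #1 and 141 with hairpin #2, against 81.9 in shCTRL and 190 in untransfected cells. Probe set 228846_at had 88.6 with hairpin #1 and 113 with hairpin #2, against 63.5 in shCTRL and 146 in untransfected cells. On both, the hairpin arrays lay between the other 2, with hairpin #2 nearer to untransfected cells, and untransfected cells were highest, as for 22.7% of all probe sets. In shCTRL the intensity was 43.2% and 43.4% of that in untransfected cells, log2 differences of -1.07 and -1.03, where the SD at this brightness was 0.28. Those were the only network probe sets 2-fold apart between these arrays, 2 of 15, both of 1 gene, against 0.706% of all probe sets, and 0 of 15 with a pseudocount of 32, which draws dim values together. The difference of hairpins from both others was -0.10 (SE 0.39) on 226275_at and 0.03 (SE 0.36) on 228846_at, with limma adjusted p of 0.96 and 0.99. Against shCTRL alone, without the untransfected array, it was 0.43 and 0.55, and without shCTRL it was -0.64 and -0.48. The third probe set, 206877_at, lay below the filter at 27.7 and 27.0 with hairpins #1 and #2, against 25.2 in shCTRL and 31.3 in untransfected cells, an order in which untransfected cells were again highest and shCTRL lowest. Untransfected cells also had the highest 3' to 5' actin ratio (2.68), while their GAPDH ratio (1.16) lay within the range of the other arrays. The part of RNA quality in the MXD1 and MAX differences was not tested. These were also the only cells without a hairpin vector, its lipofection and the selection of clones. With 1 array of them, these differences cannot be told apart from RNA quality.

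The RefSeq window of MXD1, chr2:69914859-69915158 on the plus strand, is shown beside those of MXI1 because these 2 antagonists had the widest distances in the network, and it held none of the 3 motifs.
MXD1 window: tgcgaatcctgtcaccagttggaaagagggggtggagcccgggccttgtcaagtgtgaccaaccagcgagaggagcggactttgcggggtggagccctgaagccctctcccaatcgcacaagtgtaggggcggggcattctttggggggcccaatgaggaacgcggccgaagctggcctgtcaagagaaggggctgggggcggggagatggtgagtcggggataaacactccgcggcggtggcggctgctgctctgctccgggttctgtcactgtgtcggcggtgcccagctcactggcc

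**Figure D2:**
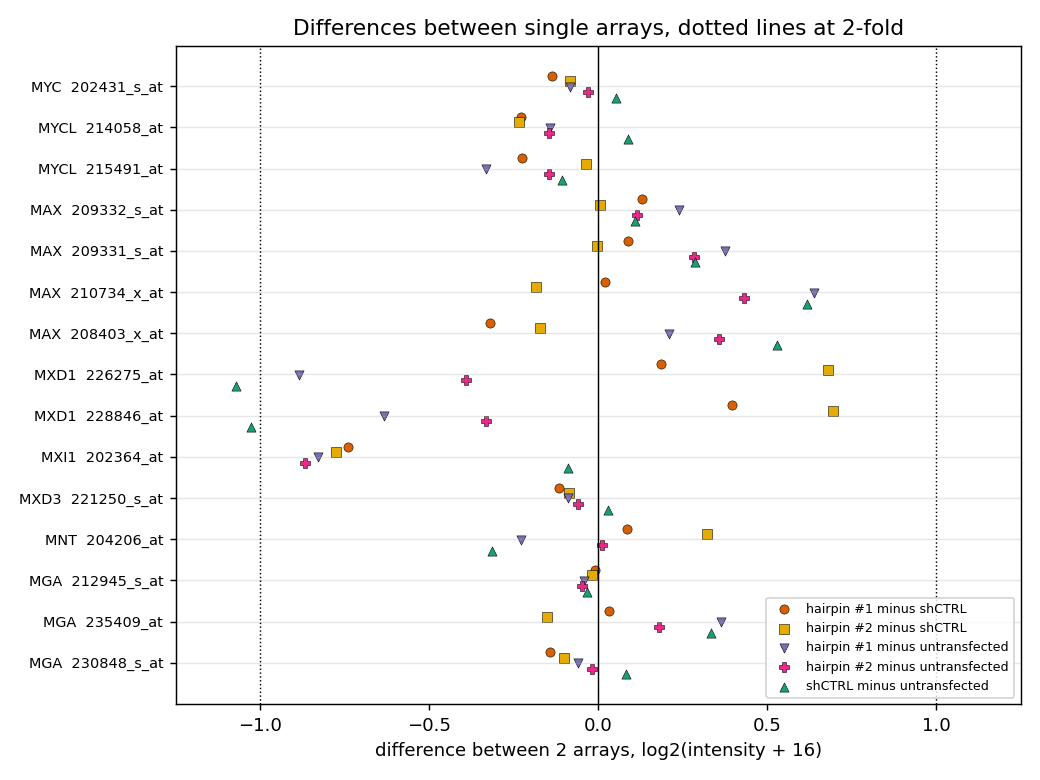
Differences between pairs of single arrays in log2(intensity + 16) for each analysed network probe set, with 1 symbol per pair and dotted lines at 1 log2 unit. For MXI1 all 4 pairs with a hairpin lie between -0.74 and -0.87 and shCTRL minus untransfected lies at -0.09, while for MXD1 shCTRL minus untransfected lies at -1.07 and -1.03.

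MXD3, an antagonist known from mouse cells for its expression in S phase, had intensities of 207 with hairpin #1 and 212 with hairpin #2, against 226 in shCTRL and 221 in untransfected cells. Both hairpin arrays were lowest, with a difference of -0.09 (SE 0.09, limma adjusted p = 0.81), below the SD of 0.27 at this brightness.

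MNT, the antagonist found in most cells, had 527 with hairpin #1 and 625 with hairpin #2, against 497 in shCTRL and 621 in untransfected cells. Hairpin #2 and untransfected cells were alike and high, and hairpin #1 and shCTRL were low, so the groups overlapped. The difference was 0.05 (SE 0.16, limma adjusted p = 0.95) and turned to -0.07 without hairpin #2 and to -0.11 without shCTRL. The second MNT probe set, 236749_at, lay between 27.8 and 38.4, below the filter. The MNT window, chr17:2401011-2401310 on the minus strand, is shown because it held the E-box, marked in capitals. It and the MXD4 window were the only 2 with the E-box among 14 windows, which belong to the 9 network genes other than MYC. Of all 35116 windows 7.26% held it, and whether 2 of 14 differs from that share was not tested.
MNT window: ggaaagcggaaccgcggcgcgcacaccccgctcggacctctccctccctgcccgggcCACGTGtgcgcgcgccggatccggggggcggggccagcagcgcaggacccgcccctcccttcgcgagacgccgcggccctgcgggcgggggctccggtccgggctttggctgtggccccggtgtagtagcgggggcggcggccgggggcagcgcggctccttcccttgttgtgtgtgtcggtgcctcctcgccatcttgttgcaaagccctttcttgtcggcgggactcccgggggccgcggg

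MGA, the scaffold of the Polycomb-type complex, was nearly level on its brightest probe set. Probe set 212945_s_at had intensities of 329 and 327 with hairpins #1 and #2, against 331 in shCTRL and 339 in untransfected cells, a difference of -0.03 (SE 0.09). Probe set 230848_s_at had 99.0 and 102 with the hairpins, against 111 in shCTRL and 104 in untransfected cells. Probe set 235409_at had 147 and 128 with hairpins #1 and #2, against 144 in shCTRL and 111 in untransfected cells, so untransfected cells were lowest. Its difference of 0.11 (SE 0.15) turned to -0.06 without the untransfected array. The fourth probe set, 1564640_at, lay below the filter at intensities between 34.2 and 44.0.

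Over the 15 analysed probe sets, 7 had both hairpin arrays below both others and 1 had both above, against 17.6% and 22.8% of all analysed probe sets. The 7 were those of MYC, MXI1 and MXD3, both of MYCL and 2 of MGA, and the 1 was the brightest of MAX. Apart from MXI1, their gaps were at most 0.14 log2 units. The 15 came from 8 genes, and probe sets of 1 gene read the same transcripts. The median difference of hairpins from others was -0.03 in the network and 0.02 over all analysed probe sets, and the median of its absolute size was 0.10 and 0.12.

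No network probe set was 2-fold apart between a hairpin array and either other array. Among all probe sets, 0.428% were 2-fold apart for hairpin #1 minus shCTRL, 1.66% for hairpin #2 minus shCTRL, 0.717% for hairpin #1 minus untransfected cells and 1.94% for hairpin #2 minus untransfected cells. None was 2-fold apart between hairpin #2 and hairpin #1, against 1.44% of all. The widest distance between the hairpins was that of MXD1 on 226275_at, 0.49 log2 units higher with hairpin #2, where the SD of that pair of arrays at this brightness was 0.34. Pairs that share an array are not independent of each other.

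**Figure D3:**
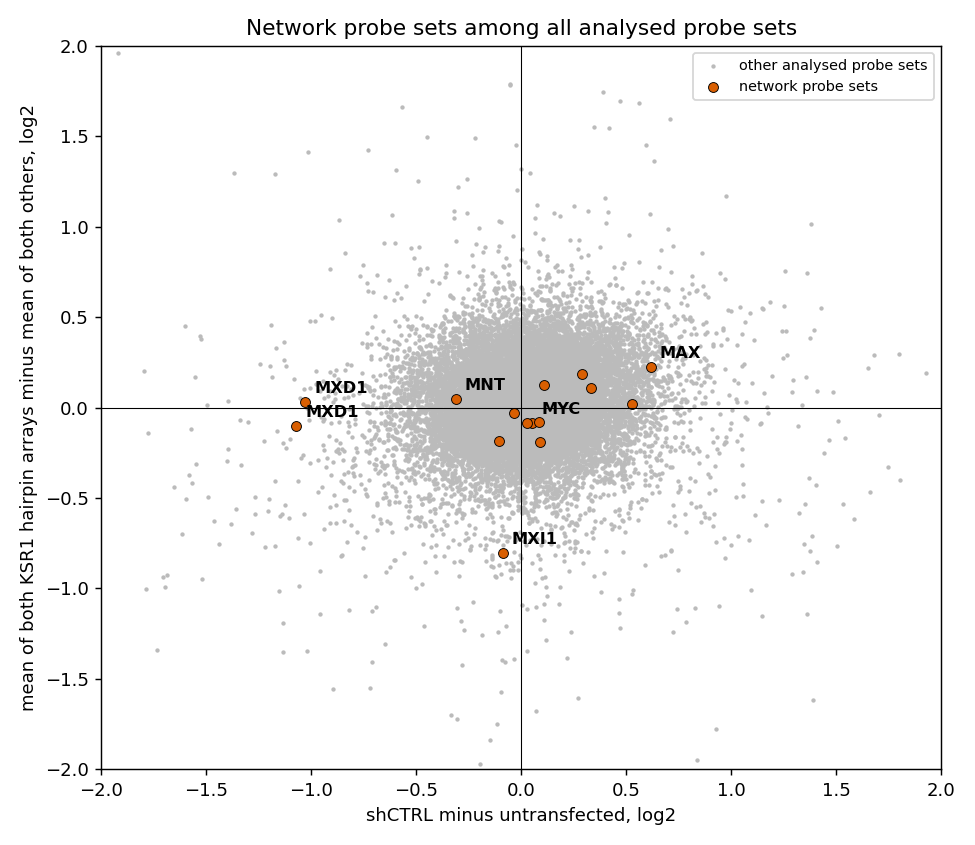
Each point is an analysed probe set, with the log2 difference of shCTRL minus untransfected cells on the horizontal axis and that of the mean of both hairpin arrays minus the mean of both others on the vertical axis; 29 probe sets lie outside the axes. MXI1 lies low at -0.80 near the middle of the horizontal axis, the MXD1 probe sets lie far left at -1.07 and -1.03, and MYC lies near the centre.

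The proteins that work with the network were read from lists of genes, each gene by its brightest probe set, in a limma fit over 12468 genes that called 0% of them. Over all these genes 22.5% had both hairpin arrays above both others and 18.4% both below, and the median difference was 0.02. List genes below the filter or without a probe set of their own were not analysed here.

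MLX, the partner that MXD1, MXD4 and MNT share with the glucose sensors MLXIP and MLXIPL, was higher with both hairpins. It had intensities of 1019 with hairpin #1 and 995 with hairpin #2, against 880 in shCTRL and 788 in untransfected cells, with a difference of 0.27 (SE 0.10). Of its 4 other analysed probe sets 217909_s_at, 217910_x_at and 210752_s_at differed by 0.30, 0.23 and 0.38, and 1570347_at by -0.01. MLXIPL differed by 0.26 with hairpin #1 below shCTRL, and MLXIP by 0.04, so 1 of the 3 genes had both hairpin arrays above both others.

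Among 13 analysed genes of the SIN3 corepressor and MIZ1 list, 3 had both hairpin arrays above both others and 5 below, and the median difference was -0.07. The extremes were SAP30 and SUDS3, both subunits of the SIN3 complex. SAP30 had 1120 with hairpin #1 and 462 with hairpin #2, against 1410 in shCTRL and 1748 in untransfected cells, a difference of -1.11 (SE 0.43) that was -0.48 without hairpin #2. Its other analysed probe set, 204899_s_at, had 136 and 77.7 with hairpins #1 and #2, against 148 in shCTRL and 178 in untransfected cells. SUDS3 had 486 and 547 with hairpins #1 and #2, against 362 in shCTRL and 338 in untransfected cells, a difference of 0.54 (SE 0.11), and its probe set 233841_s_at differed by 0.43. The histone deacetylase HDAC2 differed by 0.19, with values from -0.04 to 0.43 on leaving out 1 array. On its probe set 242141_at it differed by 0.30, with both hairpin arrays above both others. The subunit ARID4B differed by -0.30, and by -0.10 without hairpin #1. On its probe set 223111_x_at it differed by -0.14 with overlapping groups.

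Of 13 analysed coactivators of MYC, 5 had both hairpin arrays above both others and 0 below, with a median of 0.10. They were CDK9, the kinase of elongating RNA polymerase (0.26), the chromatin readers BPTF (0.24) and WDR5 (0.21), HCFC1 (0.14) and the acetyltransferase KAT2A (0.10). The second WDR5 probe set, 223308_s_at, differed by 0.01. For BPTF the difference was 0.10 without hairpin #2, and its other analysed probe sets 209271_at, 230056_at, 231953_at and 232909_s_at differed by 0.05, 0.07, 0.41 and 0.10. Of 8 analysed genes of the complex around MGA, 2 were above and 1 below, with the E2F partner TFDP1 at 0.23. Of 6 other E-box factors, TFAP4 (0.17) was above and TFE3 (-0.07) below.

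Of 18 analysed genes of MYC protein turnover, 4 were above and 2 below, with a median of 0.04. The mitotic kinase PLK1 had 831 with hairpin #1 and 1158 with hairpin #2, against 629 in shCTRL and 606 in untransfected cells, a difference of 0.65 (SE 0.18) that was 0.42 without hairpin #2. AURKA, a mitotic kinase that protects MYC proteins from degradation, differed by 0.46 (SE 0.25) with overlapping groups, by 0.19 without hairpin #2 and by 0.72 without hairpin #1. On 204092_s_at AURKA differed by 0.45, with both hairpin arrays above both others by a gap of 0.02 log2 units. The ubiquitin ligase subunit FBXW7, which marks MYC for destruction, differed by 0.04. USP36, a nucleolar deubiquitinase that acts on MYC, differed by 0.24, by 0.07 without hairpin #2 and by 0.41 without hairpin #1, and its other analysed probe sets 220370_s_at, 224978_s_at and 224979_s_at by 0.56, 0.61 and 0.28. Of 10 analysed genes that control the MYC transcript, 1 was above and 2 below, with IGF2BP3, an RNA-binding protein known to stabilise MYC messenger RNA, at -0.56 (SE 0.22) and -0.29 without hairpin #2. CTNNB1, which codes for beta-catenin, differed by 0.02 on its brightest probe set and by -0.02 on 223679_at. On 1554411_at it differed by 0.48, with 285 and 240 for hairpins #1 and #2, against 206 in shCTRL and 161 in untransfected cells. Its DNA-binding partner TCF7L2 differed by -0.16 with overlapping groups on its brightest probe set. On 212762_s_at, 216037_x_at and 216511_s_at, where both hairpin arrays lay below both others, TCF7L2 differed by -0.43, -0.41 and -0.40. On 212759_s_at, 216035_x_at and 236094_at, where the groups overlapped, it differed by -0.21, -0.32 and -0.16.

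Of 28 analysed genes that MYC is known to activate, 9 had both hairpin arrays above both others and 4 below, and the median difference was 0.05. The nucleolar genes NOP16 (0.35), RRS1 (0.32) and NOP58 (0.32) had the highest values, and the glycolytic enzymes ENO1 (-0.19) and LDHA (-0.16) the lowest of those with no overlap. The other analysed ENO1 probe sets did not agree in direction. They differed by -0.24 on 217294_s_at and -0.49 on 240258_at, but by 0.07 on 216554_s_at, where both hairpin arrays lay above both others. Of 8 analysed genes that MYC is known to repress, 0 were above and 4 below, with a median of -0.15. They were NDRG1 (-1.55), which hypoxia also induces, the stress gene GADD45A (-0.46), the cell cycle inhibitor CDKN1B (-0.14) and THBS1 (-0.08). NDRG1 had 1543 and 1510 with hairpins #1 and #2, against 3496 in shCTRL and 5778 in untransfected cells. The order of the 4 arrays was as for MXI1, but SAP30, FOXD1 and ARLN had this order too. How many of all probe sets had it was not counted. For MXI1, shCTRL and untransfected cells lay closer together, at 3272 and 3482. The part of hypoxia in the MXI1 and NDRG1 differences was not tested. No gene of any list passed limma after adjustment over all 12468 genes.

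**Figure D4:**
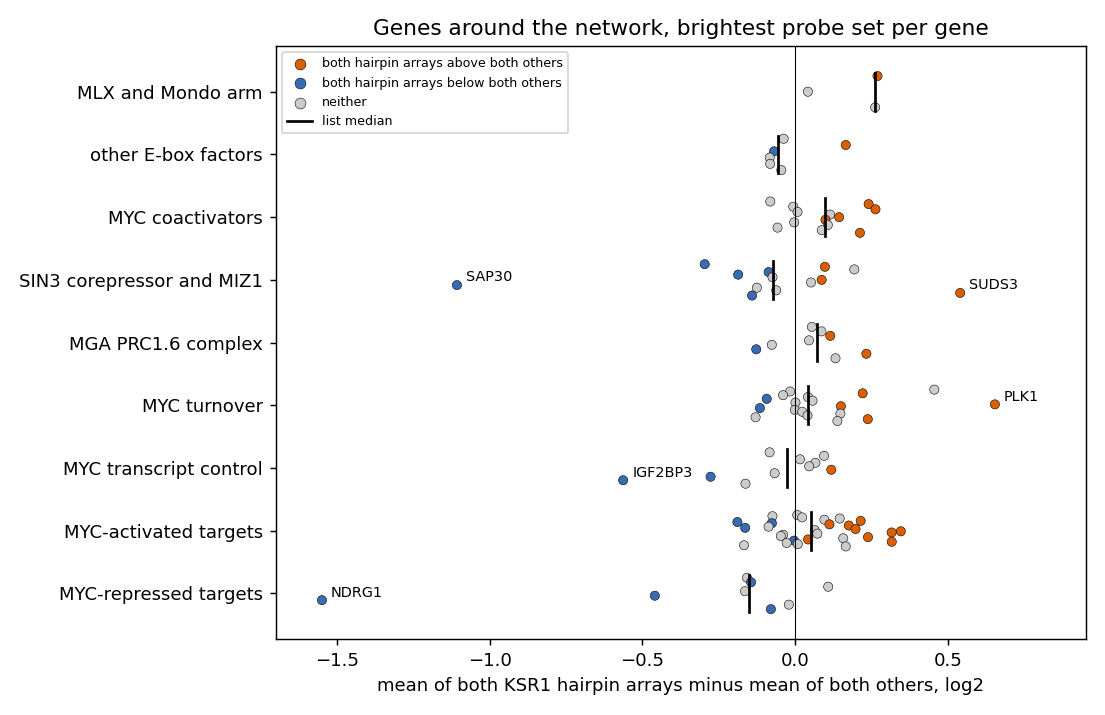
Log2 difference of the mean of both hairpin arrays minus the mean of both others for each analysed gene around the network, by list, with colour for genes whose hairpin arrays lie above or below both others and a bar at the list median. SAP30 (-1.11) and NDRG1 (-1.55) lie far left, and SUDS3 (0.54) and PLK1 (0.65) far right.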

How the data were processed

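The deposited values are intensity values on a linear scale, 1 per probe set and array; the labels' protocols give Trizol extraction and biotinylated cRNA from 2.5 micrograms of total RNA, and the authors' background correction, summary and normalization are not stated in the labels. Values were used without further scaling, as log2(intensity + 16), which understates differences of dim probe sets. On arrays no sequencing depth applies, and their number limits the precision. Gene names came from the platform annotation (41097 with 1 symbol, 1801 with several, 11777 with none), and 41043 were matched to RefSeq genes of GRCh38.p14. Limma 3.58.1 in R 4.3.3 (lmFit, eBayes, Benjamini-Hochberg) compared hairpin arrays with the others over all analysed probe sets, or over genes by their brightest probe set for lists. In simulated data for this comparison over 27338 probe sets it called 17% of probe sets changed by 1 log2 unit and 86% of those changed by 2. The simulation drew independent normal noise on each array and gave both hairpins the same change. It thus held no difference between hairpins beyond noise, unlike the real arrays. Members, lists and tests were chosen with earlier results of these data known. Named were every member probe set, KSR1, up to 4 genes per list by size of difference and the 3 genes nearest MYC in profile; list genes beyond these, and the genes nearest MXI1, were chosen after their values were seen. Alternatives covered pseudocounts, filters, scaling, probe set summary, an intensity trend and leaving out each array.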

Additional observations from a re-analysis of the deposited data

How the results depend on the processing

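Limma called 0 network probe sets under every alternative run. No paired analysis was possible because each group has 1 array. The 8 probe sets that separated the hairpin arrays from the others became 5 with the filter at the 75th percentile, 4 genes when probe sets were averaged per gene, and 9 to 14 without 1 array, where fewer arrays have to be parted. The 2 probe sets of MXD1 that were 2-fold apart between shCTRL and untransfected cells became 0 with a pseudocount of 32, 0 with the filter at the 75th percentile, 1 with the brightest probe set per gene and 0 with the mean over probe sets. No other count of 2-fold probe sets moved. Of 59 single differences of hairpins from others, followed through 731 recomputed values, 704 values kept their direction and 27 turned, 25 of them on leaving out an array. With the mean over probe sets MGA (led by 212945_s_at) stood at 0.0026, and after quantile normalization MLXIP at -0.0046. The cause of these turns was not tested. The lowest and highest log2 differences on leaving out 1 array were, for those that turned, MNT 204206_at -0.11 to 0.20, MAX 208403_x_at -0.25 to 0.28, MAX 210734_x_at -0.082 to 0.54, MXD1 226275_at -0.64 to 0.43, MXD1 228846_at -0.48 to 0.55, MGA 235409_at -0.0601 to 0.27, MLXIP 202519_at -0.0219 to 0.11, TFEB 50221_at -0.20 to 0.032, USF1 231768_at -0.31 to 0.14, HDAC2 201833_at -0.0401 to 0.43, YAF2 206238_s_at -0.0358 to 0.30, TCF7L2 212761_at -0.39 to 0.0666, CLU 208792_s_at -0.43 to 0.0992, CDKN1A 202284_s_at -0.40 to 0.0848, KRT20 213953_at -0.81 to 1.27, CDX2 206387_at -0.0934 to 0.52, KRT8 209008_x_at -0.13 to 0.41, DCN 201893_x_at -0.15 to 0.015 and HLA-DRA 208894_at -0.27 to 0.17. Dim probe sets have no detection calls, and 14 network probe sets below the filter were described by intensity only.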
